A study of Caenorhabditis elegans with 12 samples.

Results

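The levels of 10 genes of molting and of the apical extracellular matrix were followed in N2 worms fed the Δ*lpp* mutant or BW25113. They are *noah-1*, *noah-2*, *fbn-1*, *bli-3*, *mlt-7*, *bli-5*, *mlt-11*, *mlt-8*, *mlt-9* and *mlt-10*. The members were found by gene name in the processed table, which held all 10 among its 46926 features, and all 10 passed the filter on low counts that left 15266 tested genes. N2 is the standard wild-type *C. elegans* strain, and the labels give the same genotype for both groups, which differ by diet. One group of 6 libraries came from worms fed Δ*lpp*, an *E. coli* knockout without the gene for the major outer membrane lipoprotein (Braun's lipoprotein). The other 6 libraries came from worms fed BW25113, the parental strain of the knockout, which carries *lpp*. RNA was taken from whole worms and depleted of ribosomal RNA, and the strains were kept at 20 °C on a high-fat nematode medium. At what age RNA was collected is not given in the sources used here. The labels do not say that the 6 libraries of a group came from separate cultures, so p-values measure the spread between these libraries, which may be technical.

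The cuticle of *C. elegans* is an apical extracellular matrix, which the epidermis secretes on its outer face. At each molt the worm makes a transient precuticle, builds a new cuticle under the old one, crosslinks its collagens and sheds the old cuticle. Larvae molt and adults do not, and many of these genes are known for transcripts that peak once in each larval molting cycle. Among the members, *noah-1*, *noah-2* and *fbn-1* encode matrix proteins of the precuticle, *bli-3* and *mlt-7* encode enzymes that crosslink the cuticle, *bli-5* and *mlt-11* encode proteins with Kunitz-type protease inhibitor domains, and *mlt-8*, *mlt-9* and *mlt-10* are named for the molting defects that follow their loss.

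Under TMM scaling, the members were lower in worms fed Δ*lpp* than in worms fed BW25113, by unequal amounts. How far this held on other scales is given below. Of the 10 members, 4 were called lower (adjusted p under 0.05 and log2 fold change below -1) and 0 were called higher. Of all tested genes, 15.6% were called lower, 12.1% higher and 27.7% in either direction. The called members were *bli-5*, *mlt-10*, *mlt-8* and *mlt-11*. With no limit on the fold change, all 10 had an adjusted p under 0.05 and a lower level in Δ*lpp*, against 32.3% of all tested genes. The median log2 fold change was -0.90 over the 10 members and 0.05 over all tested genes, a difference of -0.95. In this ranking of all tested genes by fold change, the members lay between the 7.5 and the 25.84 percentile, so that even *bli-5* had 7.5% of all tested genes below it. RNA of whole worms was measured, in which fewer cells of a type and less RNA per cell cannot be told apart.

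Total counts were 21146884 to 23563531 per library in Δ*lpp* and 20254430 to 24442423 in BW25113. The scaling matters for these genes, because the TMM factors did not overlap, at 1.08 to 1.27 in Δ*lpp* and 0.794 to 0.988 in BW25113. Leaving the factors out moved the median of all tested genes by 0.45 on the log2 scale, to 0.50, and the higher genes made up 43.7% of all calls under TMM and 68.0% without the factors. The share of ribosomal RNA counts was 0.408 to 0.567% in Δ*lpp* and 1.24 to 2.69% in BW25113. Its part in the results was not tested.

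Of the matrix proteins, *noah-1* and *noah-2* encode the zona pellucida domain proteins NOAH-1 and NOAH-2, which the embryonic and larval epidermis secretes onto its apical surface. *noah-1* (chromosome I, 5874416 to 5878958, minus strand, 8 exons) had 158.5, 178.3 and 201.4 CPM (lowest, median and highest library; counts relative to the TMM-scaled library total) in Δ*lpp*, against 226.4, 310.4 and 385.5 CPM in BW25113. Every Δ*lpp* library lay below every BW25113 library. Its log2 fold change was -0.79 ± 0.115 (SE), 1.72-fold lower, with an adjusted p of 9e-06 by the quasi-likelihood test of edgeR, adjusted after Benjamini and Hochberg over all tested genes. *noah-2* (chromosome IV, 14091254 to 14096626, plus strand, 5 exons) had 174.9, 234.7 and 254.2 CPM in Δ*lpp*, against 234.4, 386.3 and 450.2 CPM in BW25113. It was the only member whose groups overlapped in CPM, since the lowest BW25113 library lay within the Δ*lpp* range while the other 5 lay above it. Its log2 fold change was -0.69 ± 0.134 with an adjusted p of 0.000204 in edgeR.

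*fbn-1* encodes a fibrillin-related matrix protein and spans the longest stretch of the genome among the 10 (chromosome III, 7625386 to 7641078, plus strand, 25 exons). It had 51.2, 55.0 and 62.2 CPM in Δ*lpp*, against 64.2, 109.8 and 140.2 CPM in BW25113. The groups did not overlap, but the gap between them was narrow, because 1 BW25113 library lay far below the others. The log2 fold change of *fbn-1* was -0.93 ± 0.137 with an adjusted p of 9.23e-06 in edgeR, just short of the limit of -1. Its last exon overlaps *upp-1* on the opposite strand over 45 bases, and whether the counting used strand is not given in the sources used here. *upp-1* itself had a log2 fold change of 0.04 ± 0.0945.

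Neither of the crosslinking enzymes was called. *bli-3* encodes the dual oxidase that makes hydrogen peroxide for the crosslinking of tyrosines between cuticle collagens (chromosome I, 145968 to 154855, minus strand, 19 exons). It had 21.6, 22.7 and 25.4 CPM in Δ*lpp*, against 30.2, 32.6 and 35.5 CPM in BW25113. The groups did not overlap and both were tight, with a coefficient of variation of 6.39% in each. At -0.50 ± 0.0845 its log2 fold change was the smallest of the 10, with an adjusted p of 4.71e-05 in edgeR. *mlt-7* encodes a heme peroxidase known to act with BLI-3 in the crosslinking (chromosome II, 4393007 to 4404850, plus strand, 9 exons). It had 25.1, 26.2 and 29.4 CPM in Δ*lpp*, against 37.4, 47.8 and 62.6 CPM in BW25113, again with no overlap. Its log2 fold change was -0.87 ± 0.106 with an adjusted p of 1e-06 in edgeR. Set against each other within a library, *mlt-7* over *bli-3* was 0.20 in Δ*lpp* and 0.55 in BW25113 on the log2 scale, and the ranges of this ratio overlapped between the groups.

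The genes with Kunitz domains were both called lower, and *bli-5* was the member with the largest change. BLI-5 is a small protein with a Kunitz-type domain, and worms that lack it form blisters in the cuticle (chromosome III, 13427640 to 13429768, minus strand, 4 exons). Its counts were 24 to 40 per library in Δ*lpp* and 108 to 187 in BW25113, the lowest of the members. In CPM it had 0.943, 1.09 and 1.56 in Δ*lpp*, against 6.52, 8.18 and 10.1 in BW25113, and the groups lay far apart. The log2 fold change was -2.79 ± 0.172, 6.94-fold lower, with an adjusted p of 9.35e-11 in edgeR. The last 82 bases of *bli-5* overlap *cope-1* on the opposite strand, a gene with 1342 to 1514 counts in Δ*lpp* and 1100 to 1618 in BW25113, and reads from *cope-1* could enter the *bli-5* count if strand was not used. *mlt-11* encodes a large secreted protein with many Kunitz-type domains (chromosome V, 20667205 to 20678537, plus strand, 16 exons). It had 126.8, 151.4 and 179.5 CPM in Δ*lpp*, against 197.9, 377.2 and 460.8 CPM in BW25113, with no overlap. Its log2 fold change was -1.23 ± 0.157 with an adjusted p of 1.85e-06 in edgeR.

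*mlt-10* and *mlt-8* stand close together near the left end of chromosome II and were lowered by like amounts. *mlt-10* (546705 to 552032, plus strand, 8 exons) is the founder of a nematode family of proline-rich secreted proteins of the molt. *mlt-8* (569210 to 572110, minus strand, 4 exons) starts its annotated span 17177 bases further on, with 3 protein-coding genes in between. *mlt-10* had 80.6, 95.5 and 108.2 CPM in Δ*lpp*, against 158.2, 316.0 and 377.3 CPM in BW25113. *mlt-8* had 46.9, 61.2 and 68.2 CPM in Δ*lpp*, against 134.8, 176.9 and 204.6 CPM in BW25113. Neither gene's groups overlapped. The log2 fold change was -1.65 ± 0.155 for *mlt-10* (3.13-fold lower, adjusted p of 3.61e-08 in edgeR). For *mlt-8* it was -1.55 ± 0.107 (2.94-fold lower, adjusted p of 3.99e-10 in edgeR). Within a library, the ratio of *mlt-8* to *mlt-10* differed by 0.05 between the groups on the log2 scale, and its ranges overlapped. Such likeness was not particular to neighbours, since *mlt-9* over *noah-1*, on different chromosomes, differed by -0.02. *mlt-10* shares 179 bases with *lips-7* on the same strand, and reads there could be split between them. *T27A1.3*, with 0 to 28.37 counts per library, also overlaps exons of *mlt-10* on that strand.

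*mlt-9* (chromosome X, 15101786 to 15107797, minus strand, 10 exons) had 38.3, 46.8 and 51.2 CPM in Δ*lpp*, against 53.3, 84.1 and 97.7 CPM in BW25113. The gap between its groups was narrow, with the lowest BW25113 library just above the highest Δ*lpp* library. The log2 fold change of *mlt-9* was -0.81 ± 0.119 with an adjusted p of 1.03e-05 in edgeR, below the size needed for a call. The plot of CPM by library shows the 10 members side by side.

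**Figure D1:**
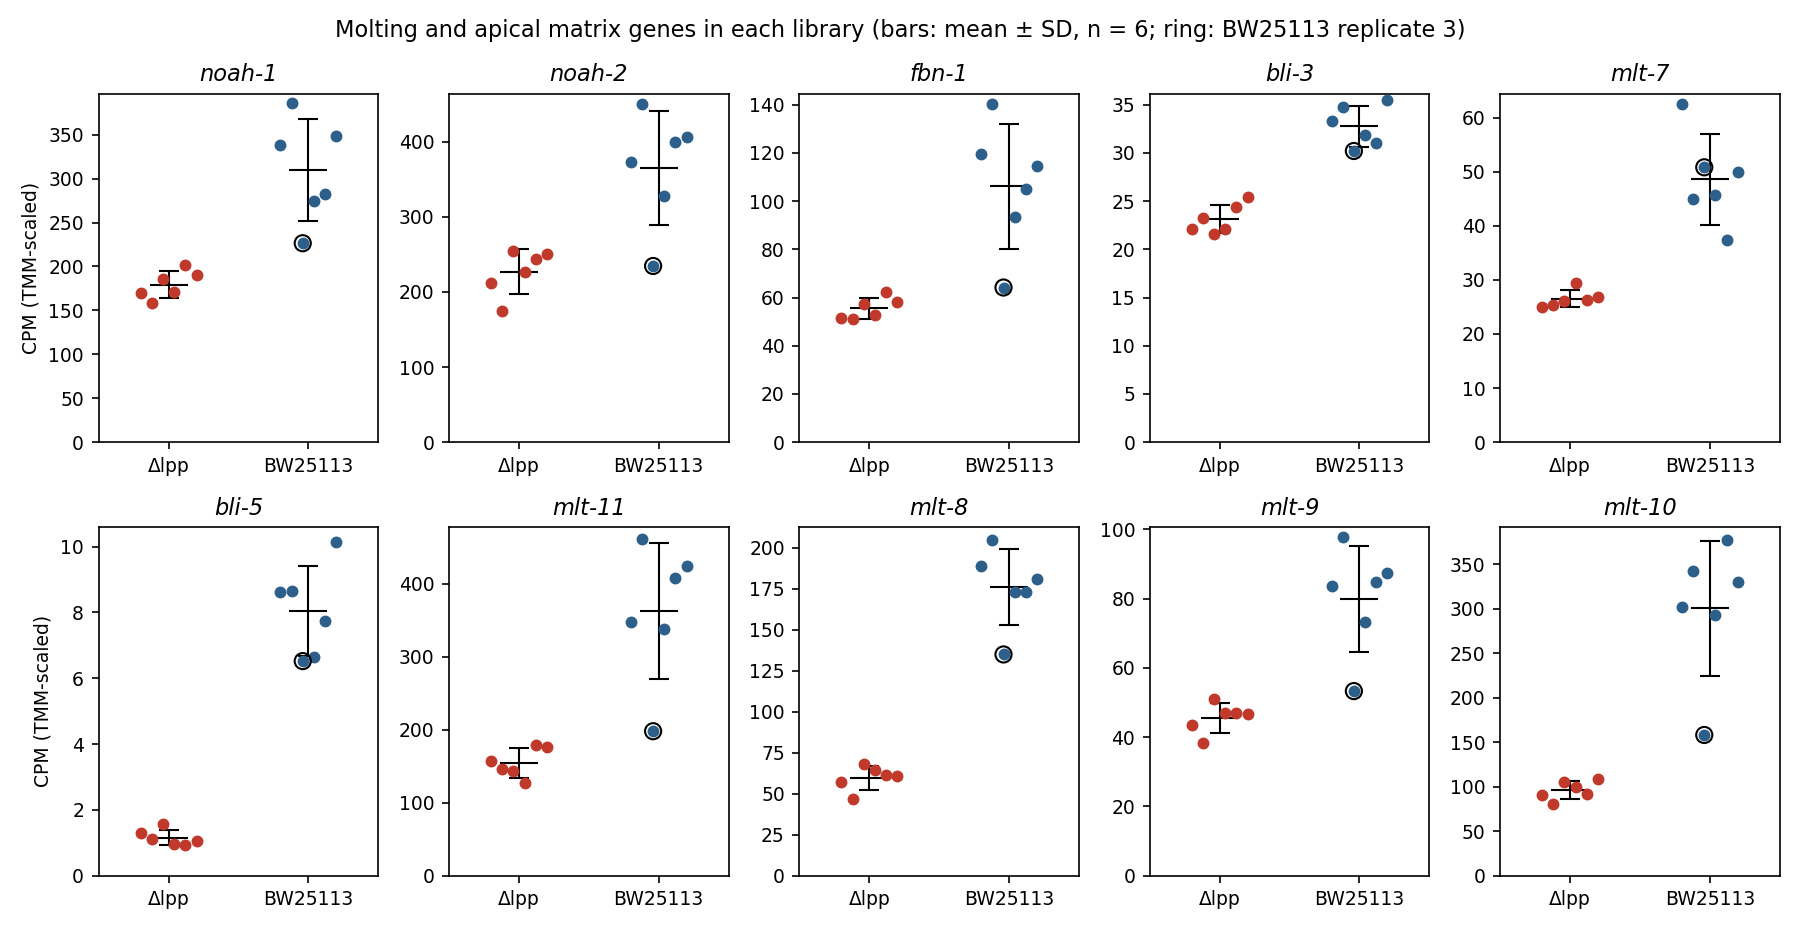
Each panel plots 1 member, with CPM (counts relative to the TMM-scaled library total) on a linear axis from 0 and a point for each library of Δlpp (red, left) and BW25113 (blue, right); bars are the mean ± SD of 6 libraries and the ring marks BW25113 replicate 3. The groups are apart for 9 of the 10 members and overlap for noah-2, where the highest Δlpp library stands at 254.2 CPM and the ringed library at 234.4 CPM.

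The distance between the groups rested on the scale as well as on the genes. In CPM, 9 of the 10 members had groups that did not overlap, against 41.5% of all tested genes. In TPM, which the authors computed from counts, gene length and library total with no TMM factor, it was 2 of 10 (*bli-5* and *mlt-8*), against 58.2%. These shares of all tested genes count separation in either direction, while the separated members were all lower in Δ*lpp*. With library size only, all 10 members kept a negative log2 fold change with a median of -0.47, and 8 of 10 had an adjusted p under 0.05 in edgeR, against 19.8% of all tested genes that were lower by the same rule. The exceptions were *noah-2* (-0.25, adjusted p 0.0955) and *bli-3* (-0.05, adjusted p 0.623). By that scale 3 members were called lower, *bli-5*, *mlt-10* and *mlt-8*, where 11.4% of all tested genes were.

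On log2(TPM + 1), tested with limma, 3 of 10 members were lower with an adjusted p under 0.05 (*bli-5*, *mlt-10* and *mlt-8*), where 17.2% of all tested genes were, and only *bli-5* was called lower, where 8.15% were. *bli-3* turned direction there, at 0.09 ± 0.0937 with an adjusted p of 0.387. *mlt-11* stood at -0.33 ± 0.163 with an adjusted p of 0.0734. These fold changes include a pseudocount of 1, which makes the changes of low genes such as *bli-5* smaller. Taken from the median gene of each fit, the median of the members was -0.95 under TMM, -0.97 with library size only and -0.72 on the log2(TPM + 1) scale. The absolute direction of *bli-3* thus depends on the scale, while its place below the median gene does not in these 3 fits.

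**Figure D2:**
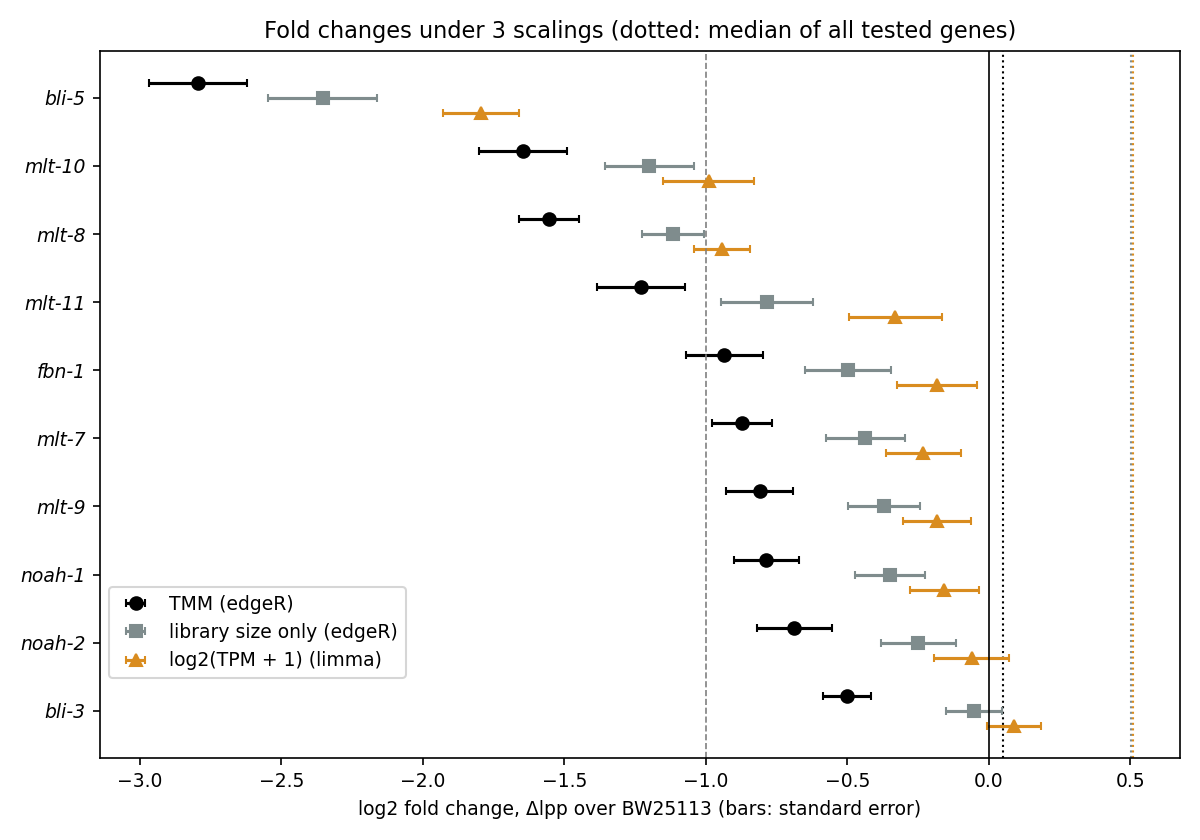
The horizontal axis is the log2 fold change of Δlpp over BW25113 with its standard error as a bar, for TMM in edgeR (circles), library size only in edgeR (squares) and log2(TPM + 1) in limma (triangles); dotted lines mark the median of all tested genes on each scale and the dashed line the limit for a call. bli-5, mlt-10 and mlt-8 are lowest on all 3 scales, and bli-3 lies at -0.50, -0.05 and 0.09.

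Levels of different genes were compared in TPM, which is per length. In Δ*lpp* the order of the mean TPM was *noah-2* (86.7 ± 7.71, SD, n = 6), *mlt-8* (59.0 ± 4.13), *noah-1* (45.2 ± 3.15), *mlt-10* (40.3 ± 2.97), *mlt-9* (22.5 ± 0.989), *mlt-11* (21.3 ± 3.12), *mlt-7* (10.4 ± 0.809), *fbn-1* (5.74 ± 0.384), *bli-3* (4.17 ± 0.408) and *bli-5* (2.10 ± 0.387). In that order only *noah-1* with *mlt-10* and *mlt-9* with *mlt-11* overlapped as neighbours. In BW25113 the order was *mlt-8* (115 ± 18.4), *noah-2* (92.1 ± 19.7), *mlt-10* (83.7 ± 20.6), *noah-1* (51.4 ± 11.1), *mlt-11* (27.6 ± 6.73), *mlt-9* (26.2 ± 5.31), *mlt-7* (12.7 ± 3.13), *bli-5* (9.82 ± 2.01), *fbn-1* (6.81 ± 1.76) and *bli-3* (3.87 ± 0.411). There every pair of neighbours overlapped except *noah-1* with *mlt-11*. *bli-5* was the lowest member in Δ*lpp*, and in BW25113 it ranked above *fbn-1* and *bli-3*. Summed over the members, TPM was 269 to 318 in Δ*lpp* and 296 to 508 in BW25113.

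To compare the members free of any scaling factor, each was divided by the geometric mean of the other 9 in its own library. Of the 10 members, 6 had ranges that did not overlap between the groups, and 76.1% of all tested genes set against the mean of the members did not overlap, so the share is below the background and nothing particular to the members is read from it. *bli-5* was lower relative to the others in every Δ*lpp* library than in any BW25113 library, with a mean difference of -1.82 on the log2 scale. The difference was -0.43 for *mlt-8* with no overlap and -0.49 for *mlt-10* with overlap. On the other side, *bli-3* was higher relative to the others by 0.74, *noah-2* by 0.55, *noah-1* by 0.44 and *mlt-9* by 0.41, each with no overlap. *mlt-7* (0.34), *fbn-1* (0.30) and *mlt-11* (-0.03) overlapped. These differences sum to 0 by construction, so the low *bli-5* raises the others. With *bli-5* left out of the divisor, a choice made after seeing the data, 5 of the 9 other members did not overlap. The share of all tested genes for that divisor was not computed, so nothing particular to the members is read from this count either. *mlt-10* (-0.70) and *mlt-8* (-0.64) lay further below the others, *noah-2* (0.35), *noah-1* (0.24) and *mlt-9* (0.21) stayed above them by less, and *bli-3* (0.54) overlapped, as did *mlt-11* (-0.24), *mlt-7* (0.14) and *fbn-1* (0.09).

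**Figure D3:**
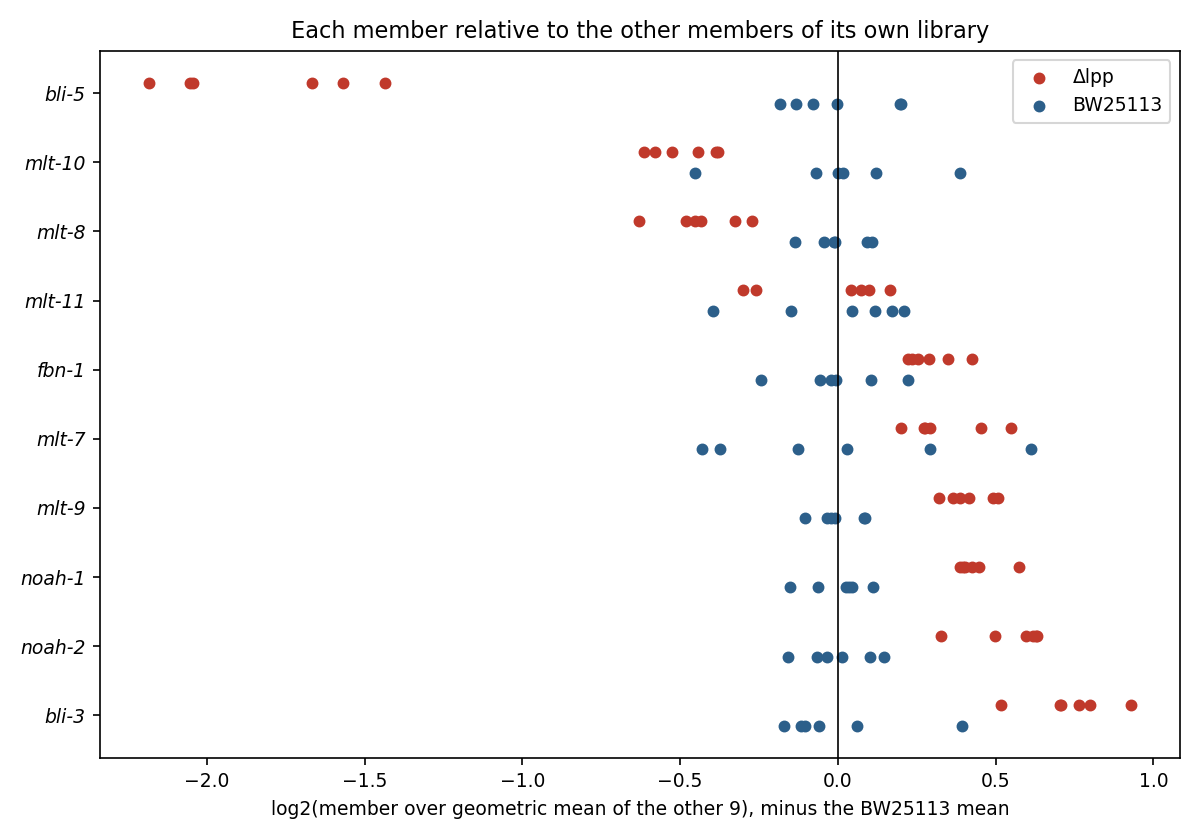
Each point is 1 library, and the horizontal axis is the log2 of a member over the geometric mean of the other 9 members in that library, minus its mean in BW25113; Δlpp is in red above BW25113 in blue. In Δlpp, bli-5 lies furthest to the left with a mean of -1.82, and bli-3 furthest to the right with a mean of 0.74.

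One library, BW25113 replicate 3, stood low for most members. It was the lowest of BW25113 for 9 of the 10 members in CPM, against 24.3% of all tested genes. The exception was *mlt-7*, lowest in replicate 5. With library size only it was the lowest for 7 members, against 27.0% of all tested genes. Averaged over the members, its log2 CPM lay -0.47 from the BW25113 mean, whereas the range was -0.16 to 0.10 over the Δ*lpp* libraries and -0.09 to 0.24 over the other 5 of BW25113. *mlt-10*, for instance, had 158.2 CPM in replicate 3 and at least 293.4 CPM in the other 5. The coefficient of variation in CPM was larger in BW25113 for 9 of 10 members (all but *bli-5*), against 69.1% of all tested genes. Its median over the members was 10.1% in Δ*lpp* and 18.9% in BW25113, and over all tested genes 14.1% in Δ*lpp* and 19.1% in BW25113. Without BW25113 replicate 3, left out after seeing the data, the BW25113 median of the members was 12.4% and that of all tested genes 16.6%. The coefficient was then larger in BW25113 for 5 of 10 members, against 59.9% of all tested genes, and smaller for *bli-3*, *bli-5*, *mlt-8*, *mlt-10* and *noah-2*.

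Without BW25113 replicate 3, *fbn-1* was called as well, at -1.05, so that 5 members were called lower, against 16.0% of all tested genes. In CPM all 10 members then had groups that did not overlap, against 47.5% of all tested genes in either direction. In TPM 3 members did, against 63.1% in either direction. The member added in TPM was *mlt-10*. The lowest of the other 5 BW25113 libraries for summed members had 376 TPM, against 295.9 TPM in replicate 3.

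Deviations of log2 CPM from the group means were correlated over the 12 libraries for the 45 pairs of members, as a description, since the members share libraries and scaling factors. The median Pearson r was 0.66, with a range of -0.33 to 0.98, and 17 pairs were over 0.8. Without BW25113 replicate 3 the median was 0.34 over 11 libraries and 5 pairs were over 0.8, so that much of the shared movement rested on this library. Within Δ*lpp* the median was 0.40 and within BW25113 0.85. Without replicate 3 the BW25113 median was 0.65 over 5 libraries, with a range of -0.72 to 0.98. In Δ*lpp* 4 members had a median r near 0 with the others, at 0.09 for *mlt-7*, 0.07 for *bli-3*, 0.04 for *mlt-11* and -0.15 for *bli-5*. Over both groups *mlt-7* moved apart from the rest, with a median r of -0.01 with the other members, and *bli-5* (0.43) and *bli-3* (0.45) were looser than the other 7, which lay between 0.79 and 0.89.

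**Figure D4:**
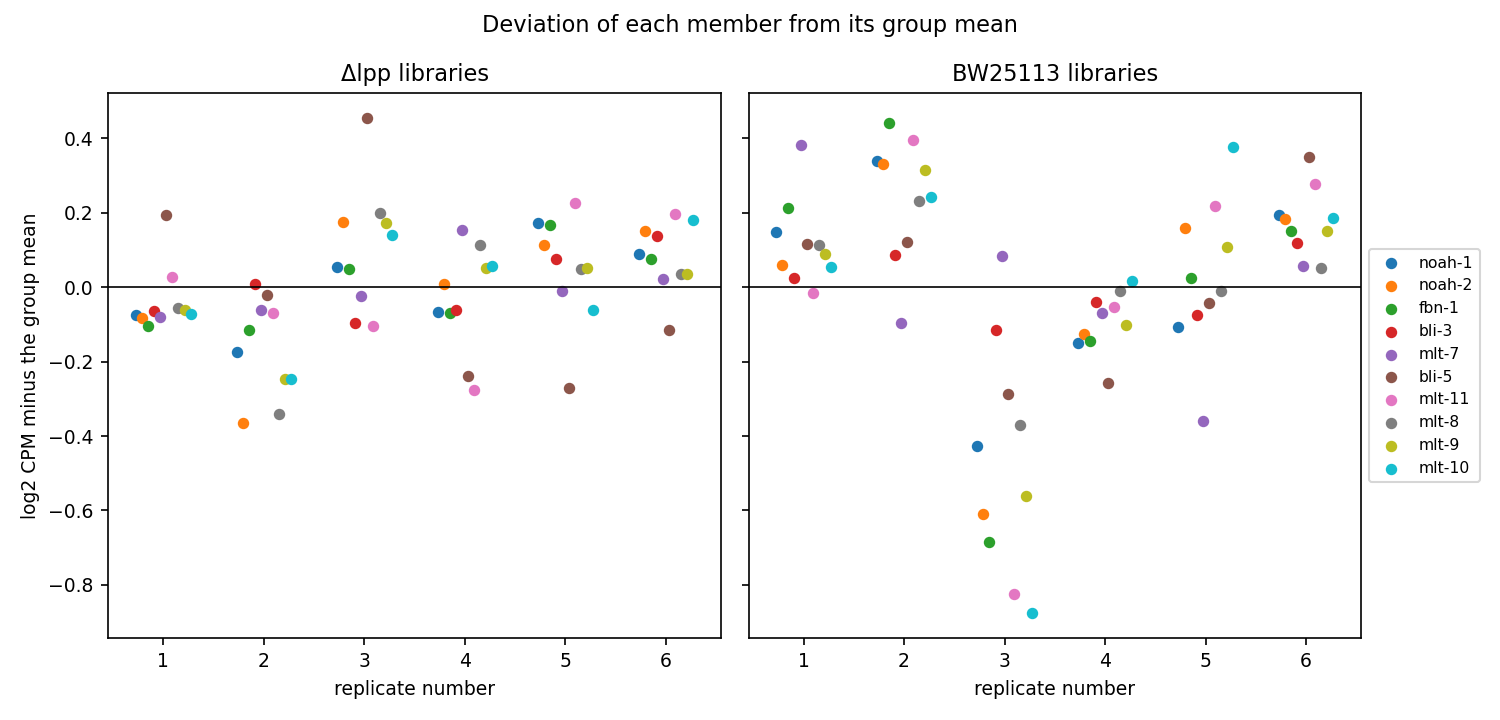
The vertical axis is the log2 CPM of a member minus its group mean, and the horizontal axis the replicate number in Δlpp (left) and BW25113 (right), with a colour for each member. In BW25113 replicate 3, 9 of the 10 members lie below 0 and mlt-7 above it, and the mean of the members is -0.47.

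The 5 genes whose deviations were most like the mean of the members, among 14883 genes compared over the 12 libraries, were *lpr-3* (r = 0.99), *K04H4.2* (0.98), *lpr-6* (0.97), *lpr-5* (0.97) and *ZK287.4* (0.97). *lpr-3*, *lpr-6* and *lpr-5* encode lipocalins, a class of secreted carrier proteins some of which belong to the precuticle, and are neighbours on the plus strand of chromosome X between 11057401 and 11064539. Their log2 fold changes were -0.98 ± 0.147, -0.93 ± 0.138 and -0.96 ± 0.142, each just short of a call. *K04H4.2* was at -0.25 ± 0.117 and *ZK287.4* at 0.06 ± 0.154, so that genes with the same pattern within groups did not all differ alike between them. BW25113 replicate 3 is among the 12 libraries, and the likeness without it was not computed.

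Related genes were read from lists of pathway members. The counts of calls stand beside 15.6% of all tested genes called lower and 12.1% called higher under TMM. A list with 1 gene called in a direction is not read as changed in that direction. Of the proteases that process or shed the cuticle, 6 of 11 were called lower and 0 higher, with a median log2 fold change of -1.003. *nas-36*, an astacin metalloprotease needed to shed the old cuticle, was at -3.01 ± 0.277, and *nas-37*, a related enzyme with a like role, at -1.003 ± 0.130. The others at the ends of the called range were *suro-1*, a carboxypeptidase-like gene of cuticle and body shape, at -1.87 ± 0.126, and *adt-2*, a secreted metalloprotease of the ADAMTS family, at -1.07 ± 0.0795.

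Among partners and relatives of the dual oxidase and the peroxidase, 5 of 7 were tested, 1 was called lower (*skpo-3*, a peroxidase of the same family as *mlt-7*, at -1.75 ± 0.0749) and 0 higher, with a median of -0.44. Of other apical matrix genes, 11 were tested. *sym-1*, a leucine-rich repeat protein, was called lower at -1.31 ± 0.132 and *dyf-7*, a zona pellucida domain protein of sensory dendrites, higher at 1.24 ± 0.189, with a median of -0.82. Of the relatives of *mlt-10*, 7 of the 12 in the table had enough counts to be tested and 1 was called lower (*mltn-13*, at -1.42 ± 0.223), with a median of -0.80. *mltn-13* had 16 to 27 counts in Δ*lpp* and 25 to 60 in BW25113, far below *mlt-10*.

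Of the 9 kinase and trafficking genes of molting, 1 was called lower, *ptc-3*, a Patched-related protein, at -1.06 ± 0.118, and the median was -0.21. Of 11 regulators of the molting cycle, 4 were called lower and 0 higher, with a median of -0.30. *lin-29*, a zinc finger factor of the larva-to-adult switch, was at -2.06 ± 0.133, *lin-42*, the Period-related gene of larval timing, at -1.74 ± 0.145, *myrf-1*, a membrane-bound transcription factor, at -1.55 ± 0.145, and *nhr-85*, a nuclear receptor, at -1.06 ± 0.164. The levels of *lin-42* were 54.1 to 73.1 CPM in Δ*lpp* and 124.8 to 254.6 CPM in BW25113.

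The widest changes, in both directions, were among the cuticle collagens. Of the 6 collagens of the annular furrows, 2 were called lower, *dpy-8* (-2.66 ± 0.154) and *dpy-9* (-2.62 ± 0.205), with a median of -0.76 over the 6. Of 13 other collagens with a body-shape or blister phenotype, 10 were called lower and 2 higher, with a median of -3.31. The blister collagens *bli-1* and *bli-2*, which belong to the struts of the adult cuticle, had log2 fold changes of -6.998 ± 0.208 and -6.58 ± 0.171. *bli-1* had 0.636 to 2.14 CPM in Δ*lpp* and 136 to 205 CPM in BW25113. *dpy-14* and *dpy-17* were called higher, at 2.997 ± 0.172 and 2.96 ± 0.166, and *dpy-17* had 308 to 570 CPM in Δ*lpp* and 49.7 to 89.0 CPM in BW25113. All members but *bli-5* had smaller changes than each collagen called in this list. With library size only, the collagen calls of both lists numbered the same, while 2 proteases, 3 regulators, 1 dual oxidase or peroxidase partner and none of the other lists' genes were called lower. Of all 15266 tested genes, 11.4% were called lower by library size only and 3720 genes higher. On that scale 2 other apical matrix genes, 1 regulator and 1 dual oxidase or peroxidase partner were called higher. The median of the regulators, -0.30 under TMM, was 0.14 on that scale and 0.28 in the limma fit of log2(TPM + 1). The kinase and trafficking median went from -0.21 to 0.21 and 0.22 in the same order. That of the dual oxidase and peroxidase partners went from -0.44 to 0.002 and 0.20. The sign of these medians thus depends on the scale. The medians of the other lists of related genes stayed negative in each of these fits.

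**Figure D5:**
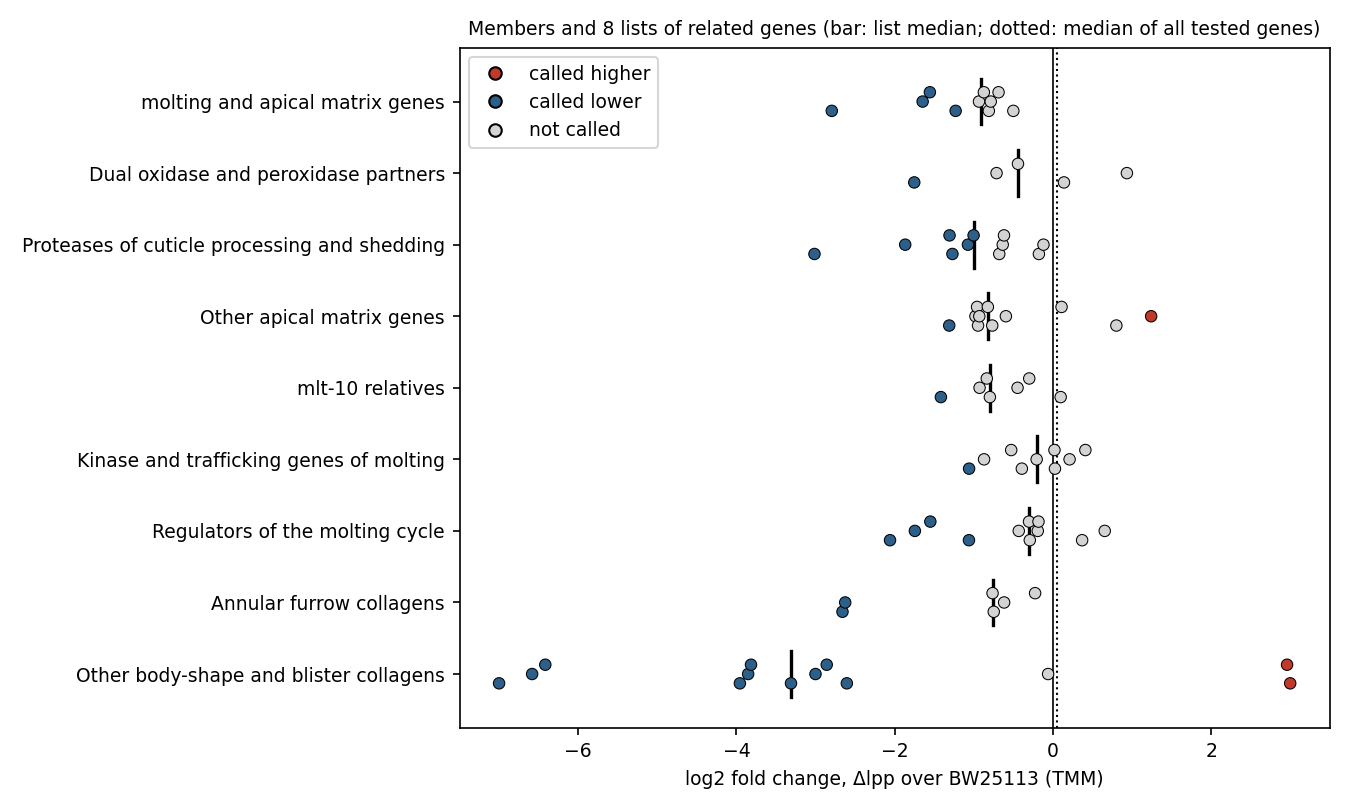
Each point is a tested gene of the 10 members or of a list of related genes, and the horizontal axis is the log2 fold change of Δlpp over BW25113 under TMM; red points were called higher, blue lower and grey not called. The bar is the median of a list (-0.90 for the members, -3.31 for the body-shape and blister collagens) and the dotted line the median of all tested genes, 0.05.

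Markers of the cells that express or surround these genes were read beside them. Of 8 epidermal markers, 1 was called lower (*mup-4*, -1.25 ± 0.0762) and 1 higher (*elt-6*, 1.19 ± 0.108). Below the limit for a call but with an adjusted p under 0.05 in edgeR, *egl-18* (0.93 ± 0.116), *elt-1* (0.63 ± 0.120) and *lin-26* (0.29 ± 0.0965) were higher, and *vab-10* (-0.59 ± 0.0996) and *elt-3* (-0.30 ± 0.0964, but 0.14 with library size only) lower. The epidermal markers thus did not share one direction under TMM. With library size only, *elt-6* (1.64), *egl-18* (1.38), *elt-1* (1.08), *lin-26* (0.75) and *nhr-73* (0.40) had positive log2 fold changes, as *elt-3* did. On that scale *mup-4* (-0.81) and *vab-10* (-0.14) stayed negative. The summed level of the 8 was 703 to 847 CPM in Δ*lpp* and 935 to 1153 CPM in BW25113. *vab-10* and *mup-4* were lower in Δ*lpp* by the most CPM. The order turned in TPM, where the sum was 166 to 195 in Δ*lpp* and 120 to 131 in BW25113. With library size only, 3 of the 8 were called higher and 0 lower, so the direction of the epidermal sum depends on the scale. Epidermal transcripts were thus present in all libraries. Of 4 body wall muscle markers 3 were called lower, with sums of 2287 to 3065 CPM in Δ*lpp* and 5863 to 9550 CPM in BW25113. Of 7 sperm markers 5 were tested and all 5 called lower, with sums of 1.91 to 3.51 CPM in Δ*lpp* and 89.2 to 147 CPM in BW25113. Of 11 oocyte and eggshell markers 1 was called higher, and the sums were 6089 to 8445 CPM in Δ*lpp* and 3139 to 6382 CPM in BW25113. Of 4 markers each, neurons had 2 called higher (sums of 230 to 266 CPM in Δ*lpp* and 167 to 192 CPM in BW25113), intestine 1 called lower (861 to 1084 CPM in Δ*lpp* and 1872 to 2387 CPM in BW25113), germ line 1 called lower (596 to 764 CPM in Δ*lpp* and 937 to 1244 CPM in BW25113) and pharynx none. Of the 6 yolk protein genes 3 were called lower, while their sums overlapped (38550 to 72758 CPM in Δ*lpp* and 30964 to 67746 CPM in BW25113). Of 8 early embryo markers 4 were tested and 2 called higher, at sums of 3.67 to 5.49 CPM in Δ*lpp* and 1.43 to 5.999 CPM in BW25113. These calls and CPM sums are under TMM, where 15.6% of all tested genes were called lower and 12.1% higher. With library size only, where 11.4% of all tested genes were called lower, 5 sperm, 3 yolk, 1 body wall muscle and 1 germ line marker were, and 0 of intestine. Called higher on that scale were 4 oocyte and eggshell, 3 neuron, 3 early embryo, 2 yolk and 1 pharynx marker. The germ line sums overlapped in TPM, at 243 to 306 in Δ*lpp* and 260 to 323 in BW25113. The part of these marker differences in the values of the members was not tested. BW25113 replicate 3, the low library for the members, had the highest BW25113 sums of the oocyte and eggshell markers (6382 CPM) and of the yolk protein genes (67746 CPM). It also had the highest of the cuticle proteases (2369 CPM) and of the dual oxidase and peroxidase partners (247 CPM). For the other lists of related genes it had the lowest BW25113 sum, such as the furrow collagens (314 CPM).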

How the data were processed

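The processed RNA-seq table of 12 libraries (6 fed Δ*lpp*, 6 fed BW25113) was used. The authors' reads were filtered by Seqtk and mapped by HISAT2. Stringtie gave the fragment counts and RNAnorm the TPM. The submitters' processing notes name WBcel235, and versions are not given in the sources used here. The authors deposited estimated counts, which are not normalized (8.97% of values are not whole numbers), and TPM, which the authors scaled by gene length and library total. Group means of TPM in the same table were not used, and 0 per-library columns were left out.

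Estimated counts were rounded. Of the member values, 21 of 120, in 3 members, were not whole. Genes were kept by filterByExpr (minimum count 10, minimum total count 15), scaled by TMM and tested with edgeR 4.0.16 (R 4.3.3; quasi-likelihood, robust, no covariate), with Benjamini-Hochberg adjustment over 15266 genes. Genes were called at a log2 fold change beyond 1 in either direction with adjusted p below 0.05. The tested genes held 99.93% of counts. At these depths 3 counts correspond to 0.111 to 0.185 CPM, and such floors cover counting error only. No pair of libraries within a group agreed within sampling noise (chi-square per degree of freedom 4.40 to 70.5).

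The members and lists were chosen with earlier results of these data known. All 10 members are named. From each list, at most the 2 highest and 2 lowest called genes are named, and in addition the 5 genes most like the members. Epidermal genes, dual oxidase and peroxidase partners and overlapping genes named besides these were chosen after their values were seen. Gene positions are from the Ensembl annotation of WBcel235, and exons are merged over transcripts. Alternatives were DESeq2 1.42.0, RLE, upper quartile and library size scaling, both filters, limma 3.58.1 on log2 TPM with a pseudocount of 1 or 0.1, a replicate block, and each library left out. After seeing the data, the coefficients of variation were recomputed without BW25113 replicate 3 and the ratios within libraries without *bli-5* in the divisor. The code was tested on simulated data. A promoter motif search was not run, since no sequence was used here. Tables and plots were made with pandas 2.3.3, numpy 2.4.6 and matplotlib 3.10.9 in Python 3.11.15.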

Additional observations from a re-analysis of the deposited data

Results flagged for a closer look

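Of 20 sets of 6 TPM values (10 members, 2 groups), 2 held a library that stood apart from the other 5 by Dixon's criterion, and chance alone marks about 1 set in 20. *mlt-8* had 51.07 TPM in Δ*lpp* replicate 2, below the other 5 Δ*lpp* libraries at 59.3 to 63.1 TPM, and the gap was 0.686 of the range. *mlt-9* had 20.58 TPM in the same library, with the other 5 between 22.6 and 23.3 TPM and a gap of 0.743 of the range. None of the 20 sets of CPM values held such a library, and the *mlt-8* value of Δ*lpp* replicate 2 was 46.9 CPM. Leaving this library out changed no call of a member.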

How the results depend on the processing

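Of 21 alternatives, the number of members called lower was 4 in 17, 5 without BW25113 replicate 3, 2 on log2(TPM + 0.1), 1 on log2(TPM + 1) and 3 with library size only, and 0 were called higher in any. Of all tested genes, 15.6% were called lower under TMM, 16.0% without BW25113 replicate 3 and 11.4% when scaled by library size. The share was 8.15% for log2(TPM + 1), so nothing particular to the members is read from the 1 call there. The log2(TPM + 0.1) fit called 1593 of 15266 genes lower. With library size only, the median log2 fold change of the members was -0.47 (all genes 0.50). It was -0.21 under log2(TPM + 1) (all genes 0.51) and -0.23 under log2(TPM + 0.1) (all genes 0.64). *bli-3* changed sign, to 0.0885 under log2(TPM + 1) and 0.108 under log2(TPM + 0.1), with adjusted p of 0.387 and 0.397 in limma. Over all genes, 1849 were called higher and 2379 lower under TMM. Higher calls numbered 4558 on log2(TPM + 0.1), 3720 with library size only and 1032 with at least 10 counts in every library, and lower calls 1178 with that filter, which tests fewer genes (12400), and 1244 on log2(TPM + 1). The share of higher calls was 43.7% under TMM, 68.0% both for library size only and for log2(TPM + 1), and 74.1% for log2(TPM + 0.1). The cause of the difference between scales was not tested. With each library left out, 1824 to 2293 genes were higher, 2281 to 2520 lower and 4 to 5 members lower, and *fbn-1* passed the limit without BW25113 replicate 3. The replicate numbers did not pair the libraries (correlations of -0.17 to 0.33, only replicate 1 best with its own number), and with the replicate block 1908 genes were higher, 2356 lower and 4 members lower, with a member median of -0.88. DESeq2 called 1770 higher and 2456 lower, with the same 4 members.

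Depth limits *bli-5* most, with 24 to 40 counts per Δ*lpp* library. Strand use in the counting, the age of the worms and separate cultures are not given in the sources used here.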
